A study of Homo sapiens with 36 samples.

Results

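The proteins of the cytosolic ribosome were followed in LNCaP, an androgen-sensitive prostate cancer cell line, after treatment with androgen and in clones that stably express the hypoxia-inducible factor HIF1a. A gene was taken when its annotated symbol begins with RPL or RPS and a number, or is 1 of the acidic stalk proteins, after dropping 18 pseudogene symbols, 10 symbols of the RPS6K kinases and RPS19BP1, which binds RPS19 and is no ribosomal protein. Each gene was read from its brightest probe over all arrays. This gave 78 of the 20045 genes named on the arrays, 50 of the large and 28 of the small subunit, and 10 of the 78 are paralogs (RPL3L, RPL7L1, RPL10L, RPL22L1, RPL26L1, RPL36AL, RPL39L, RPS27L, RPS4Y1 and RPS4Y2). Some ribosomal protein genes were not analysed here.

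Gene expression came from 36 Illumina BeadArrays in 7 groups. LNCaP/Empty carries the vector without HIF1a. HIF12 and HIF49 are labelled as separate clones carrying HIF1a, which the study introduced by retrovirus in a form that resists degradation in oxygen. Each is 1 clone, so a difference of a clone from LNCaP/Empty cannot be told apart from the history of that clone. LNCaP/Empty and HIF12 were each measured with vehicle (0.01% ethanol), with 1 nM of the synthetic androgen R1881, and as Normal, and HIF49 as Normal only. Vehicle and R1881 cells had 96 h in charcoal-stripped serum before 4 h of treatment, while for Normal cells the labels repeat the stripped serum and do not say what treatment or medium the word stands for. LNCaP/Empty Normal had 6 arrays and each other group 5. Nothing in the labels says that the arrays of a group are separate cultures, so the p-values measure the spread between arrays, which may be technical.

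The cytosolic ribosome joins a small subunit, which reads the mRNA, with a large subunit, which forms the peptide bond, and each ribosomal protein is present once per ribosome except the stalk proteins. Their mRNAs are abundant and stable, and most start with a cytosine followed by a run of pyrimidines, the terminal oligopyrimidine (TOP) start. Through this start mTOR, LARP1 and related factors control how strongly the mRNAs are translated, so that ribosome production can change with little change in mRNA level. Some paralogs are expressed in particular tissues and can replace their partner in the ribosome.

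The TOP start is shown for the genes on which the results turn and for some partners, because it is the sequence that most members share. The sequences are RefSeq promoters of GRCh38.p14, matched by gene ID for 66 of the 78 genes. Each has 30 bases, the last 10 before the annotated first base of the gene and the first 20 from it, and lies in exon 1 from base 11 on. Capitals mark the longest run of at least 5 pyrimidines that begins with C within 5 bases of the annotated first base.
RPS23, chr5:82278335-82278364, minus strand: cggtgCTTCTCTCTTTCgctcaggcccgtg
RPL28, chr19:55385922-55385951, plus strand: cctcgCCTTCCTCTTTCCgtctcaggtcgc
RPL34, chr4:108620566-108620595, plus strand: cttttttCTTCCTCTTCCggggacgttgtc
RPL22, chr1:6199576-6199605, minus strand: cgctcaCCTCCCTTTCTaactccgctgccg
RPL22L1, chr3:170870176-170870205, minus strand: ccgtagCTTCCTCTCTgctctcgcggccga
RPS27, chr1:153990752-153990781, plus strand: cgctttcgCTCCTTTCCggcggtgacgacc
RPS27L, chr15:63157458-63157487, minus strand: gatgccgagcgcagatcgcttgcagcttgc
RPL10L, chr14:46651762-46651791, minus strand: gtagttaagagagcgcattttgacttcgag

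RPL22 and its paralog RPL22L1 both have such a run, whereas RPS27 has one and its paralog RPS27L has none in this window. Of the 66 genes with a sequence, 42 (63.6%) had at least 5 pyrimidines in a row from a C at the annotated first base, against 4.07% of 35116 RefSeq promoters of the same length. The run could begin before that base, as it does in RPS23, RPL28, RPL34, RPL22, RPL22L1 and RPS27 above. With a C-led run allowed to begin within 5 bases of the first base, it was found in 51 (77.3%), against 21.1% of all promoters. The strand searched is the one that reads like the mRNA. Pyrimidines from a C at the first base, at least 5 in a row, were found in 40 of 58 members that are no paralogs (69%) and in 2 of 8 paralogs (25%). A match describes the letters at an annotated start and is not evidence of how the mRNA is translated.

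Of the 78 genes, 75 were detected on all 36 arrays (detection p under 0.01). RPL39L, a paralog known from testis, was detected on 5 arrays, and RPL3L, a paralog of heart and skeletal muscle, and the probe used for RPL10 on none. The probes were bright: 53 of the 78 lay in the top 1% of all probes by mean intensity, and the highest intensity of a ribosomal protein probe on any array was 56857, where the array maxima ran from 51787 to 61317. Bead signals near the top of the scale respond less to a change in mRNA, and the part of this in the small differences below was not tested. Ribosomal protein genes have many processed copies in the genome, and since no probe sequences were given here, signals of near-identical copies such as RPL10 and RPL10L or RPS4X and RPS4Y1 could not be told apart. In bulk RNA, a change in the cells' make-up and a change per cell cannot be told apart either.

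Of 48105 probes, 15374 to 17839 were detected on an array. As for the label LNCaP, 7 of the 8 luminal markers measured of 10 listed were detected on all arrays, and KLK2 on 33, while of 9 measured markers of basal, neuroendocrine, immune, endothelial and stromal cells none was detected on all arrays and 6 on none. Array correlations ran from 0.964 to 0.993, and for 35 of 36 arrays the closest other array was from the same group, the exception being HIF49 Normal replicate 4. HIF1A itself set 1 library apart. The HIF1A probe ILMN_1763260 read 10.00, 10.19, 10.00 and 10.35 (log2 signal) on HIF49 Normal replicates 2 to 5, but 7.45 on the library labelled HIF49 Normal replicate 1, below the 8.56 to 8.94 of LNCaP/Empty Normal. A second probe, ILMN_1681283, read 7.09 on it and 8.78 to 9.08 on the other HIF49 arrays, while on the remaining probe, ILMN_2379788, the groups overlapped. On that library 36 of the 78 ribosomal protein genes (46.2%) were below all other HIF49 arrays and 16 (20.5%) above them, against 31.6% and 42.8% of the 8394 genes detected on all arrays. The HIF49 comparisons below are therefore given with and without it. It stays in the fit of the other comparisons, whose variance is shared over all arrays.

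After quantile normalization, the median signal of the 78 genes varied little between arrays. It averaged 14.72 ± 0.030 (log2 signal, SD, n = 5) in LNCaP/Empty vehicle, 14.79 ± 0.035 in LNCaP/Empty with R1881, 14.72 ± 0.047 in HIF12 vehicle and 14.71 ± 0.015 in HIF12 with R1881. Normal cells gave 14.67 ± 0.033 (n = 6) for LNCaP/Empty, 14.67 ± 0.022 for HIF12 and 14.59 ± 0.089 for HIF49, whose lowest array, at 14.45, was replicate 1. Without that library HIF49 ran from 14.56 to 14.70, which overlaps both other Normal groups. Quantile normalization gives every array the same distribution of values, which limits how far the median of such bright probes can move. In the intensities before correction and normalization this median ran from 14.33 (HIF49 Normal replicate 1) to 15.02 (LNCaP/Empty R1881 replicate 4).

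**Figure D1:**
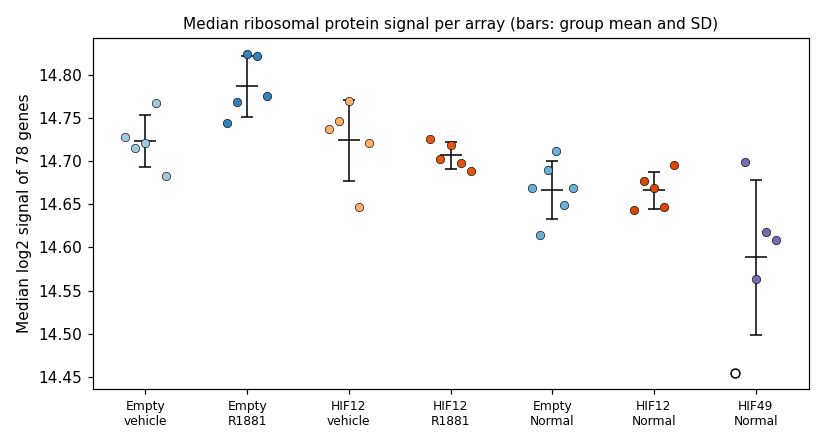
Median log2 signal, after quantile normalization, of the 78 ribosomal protein genes on each array (vertical axis) in the 7 groups (horizontal axis), with bars for group mean and SD. The open circle is the library labelled HIF49 Normal replicate 1, at 14.45, the lowest of the 36 arrays.

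A moderated F test over the 7 groups (limma, adjusted over all probes) passed for 24 of the 78 genes (30.8%), against 65.2% of the genes detected on all arrays. The group means of a member spanned 0.21 log2 units in the median (lowest 0.054, RPL6, highest 1.08, RPL28), against 0.47 for all detected genes. The 10 with the largest F were RPL28, RPL22L1, RPS23, RPL10L, RPL37, RPL11, RPL34, RPS27L, RPS7 and RPS18. As a description, 10 of the 53 members in the top 1% of probes passed (18.9%) and 14 of the other 22 detected on all arrays (63.6%), while of 145 other detected genes in the top 1% of probes 60% passed. The members and the other genes share this cut and were not matched for brightness above it.

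**Figure D2:**
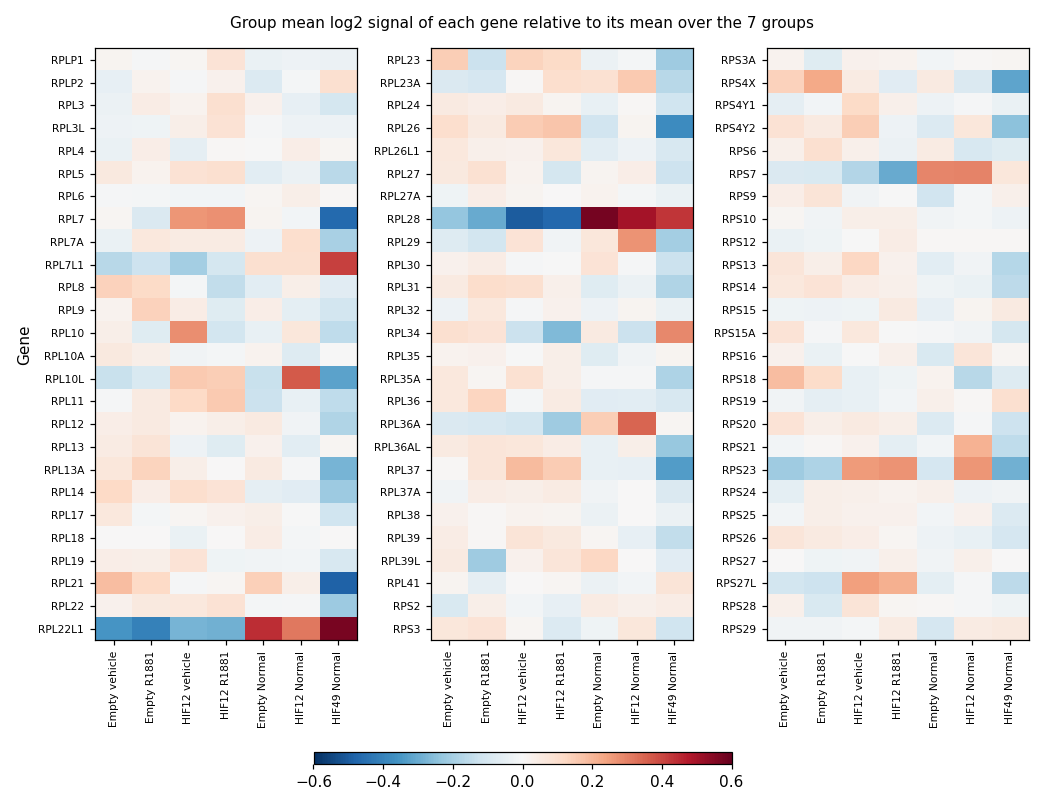
Group mean log2 signal of each of the 78 genes relative to its own mean over the 7 groups (colour, red higher and blue lower), with genes in rows by subunit and number and groups in columns. Most rows are pale, and the widest spans over the groups are those of RPL28, RPL22L1, RPL7, RPL10L and RPL21. The HIF49 column, which is blue for many genes, includes the library labelled replicate 1.

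The first question was whether androgen changes these mRNAs within 4 h. With R1881 against vehicle in LNCaP/Empty, 0 of the 78 genes were higher and 0 lower at an adjusted p under 0.05 (limma, 1 gene at an unadjusted p under 0.05), where 1.97% of all genes were higher and 0.983% lower, and 5.38% of the genes detected on all arrays were called. In HIF12 the counts were again 0 and 0 (1 gene unadjusted), against 1.56% higher, 0.514% lower and 3.78% of detected genes. The median difference of the 78 genes was -0.0055 in LNCaP/Empty and -0.0045 in HIF12 (all genes -0.0099 and -0.0072), and for 77 of the 78 genes (98.7%) in each line the 95% interval of the difference lay within a 1.5-fold change either way, which held for 91.6% and 93.5% of detected genes. RPS6, the small subunit protein that S6 kinases phosphorylate, differed by 0.07 ± 0.078 (log2 difference, SE) in LNCaP/Empty and -0.07 ± 0.078 in HIF12. RPL5 and RPL11, which together bind MDM2 when ribosome assembly is disturbed, differed by -0.04 ± 0.087 and 0.06 ± 0.058 in LNCaP/Empty. The androgen effects of the lines themselves differed for 0 of the 78 genes (0 unadjusted), against 0.00998% of all genes.

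**Figure D3:**
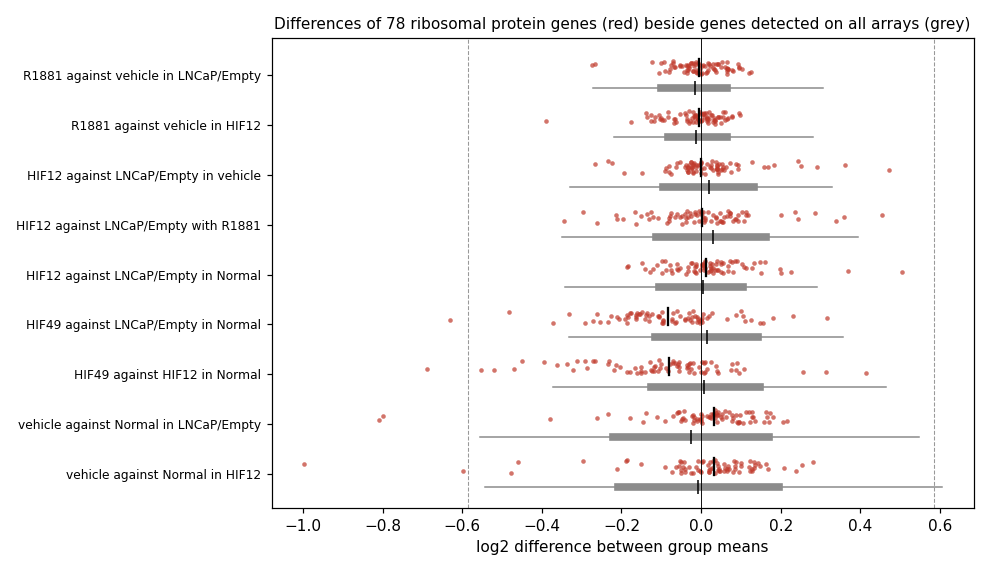
Log2 difference between group means (horizontal axis) in each of 9 comparisons (vertical axis). Red points are the 78 ribosomal protein genes with their median as a black line, grey bars show the middle 50% and grey lines the middle 90% of genes detected on all arrays, and dashed lines mark 1.5-fold. The points bunch near 0 with R1881, lie lower for HIF49 (medians -0.084 and -0.080), and in vehicle against Normal only RPL28 and RPL22L1 lie beyond the dashed line.

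HIF1a expression was examined in HIF12 against LNCaP/Empty under each of 3 conditions. In vehicle 2 members were higher and 0 lower (2.27% and 2.23% of all genes, 7.91% of detected genes in either direction, 9 members unadjusted). With R1881, 2 were higher and 1 lower (3.53% and 2.74%, 10.9%, 11 unadjusted), and in Normal cells 2 were higher and 0 lower (2.17% and 2.66%, 8.6%, 7 unadjusted). When arrays were scaled by their medians instead, the split with R1881 was 3 higher and 0 lower. In vehicle, 4 members (3 higher and 1 lower) were called with the deposited table, without background correction, with the detection filter or with blocks of 12 running numbers. The members' medians were 5.8e-05, 0.0014 and 0.013, against 0.0091, 0.011 and 0.00044 for all genes, and no member passed 1.5-fold. Without replicate 5 of either line in vehicle, or LNCaP/Empty replicate 5 with R1881, 1 member was called.

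RPS23, a protein of the decoding center of the small subunit, was higher in HIF12 in all 3 conditions. With vehicle its log2 signal was 11.60, 11.44, 11.44, 11.42 and 11.59 on the LNCaP/Empty arrays and 11.98, 11.92, 12.00, 12.03 and 11.91 on those of HIF12. With R1881 it was 11.50, 11.46, 11.59, 11.51 and 11.58 in LNCaP/Empty and 11.96, 12.07, 11.98, 12.07 and 11.83 in HIF12. In Normal cells LNCaP/Empty ran from 11.52 to 11.82 with a median of 11.57 (n = 6), and HIF12 gave 12.06, 11.96, 11.98, 11.94 and 11.94. All HIF12 arrays lay above all LNCaP/Empty arrays in each condition. The log2 differences were 0.47 ± 0.064 in vehicle (SE, adjusted p = 6.20e-06), 0.45 ± 0.064 with R1881 (adjusted p = 1.06e-05) and 0.37 ± 0.061 in Normal cells (adjusted p = 0.000120), or 1.39-fold, 1.37-fold and 1.29-fold. The 3 comparisons share no arrays. HIF49 did not show it: its arrays read 11.59, 11.48, 11.33, 11.34 and 11.38, a difference of -0.19 ± 0.061 from LNCaP/Empty (adjusted p = 0.110). RPS23 has 1 probe, so no other probe could be compared.

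RPS27L, a p53-responsive paralog of RPS27, was higher in HIF12 in vehicle and with R1881. The vehicle arrays read 13.46, 13.63, 13.56, 13.58 and 13.06 in LNCaP/Empty and 13.63, 13.85, 13.85, 13.84 and 13.94 in HIF12, so that the groups overlapped at their edge. With R1881 the values were 13.30, 13.57, 13.43, 13.58 and 13.34 against 13.75, 13.91, 13.68, 13.74 and 13.85, with no overlap. The differences were 0.36 ± 0.089 (adjusted p = 0.0169) and 0.34 ± 0.089 (adjusted p = 0.0216). In Normal cells the difference was 0.05 ± 0.085 (adjusted p = 0.923), and RPS27 differed by at most 0.06 in the 3 conditions. The vehicle call was lost without LNCaP/Empty replicate 5 (0.26, adjusted p = 0.0827) or HIF12 replicate 5 (0.33, adjusted p = 0.0597), with only the compared groups (adjusted p = 0.149) and with median scaling (adjusted p = 0.268), and the R1881 call without HIF12 replicate 2 or 5 or LNCaP/Empty replicate 1 or 5 (0.30 to 0.32, adjusted p 0.0582 to 0.0749) and with median scaling (adjusted p = 0.0898).

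RPL10L, an intronless paralog of RPL10 known from testis, was higher in HIF12 in Normal cells. Its log2 signal was 10.19, 10.16, 10.21, 10.06 and 10.08 in HIF12 and 9.52 to 9.87 in LNCaP/Empty with a median of 9.58 (n = 6), with no overlap. The difference was 0.50 ± 0.081 (adjusted p = 6.29e-05), and it was 0.29 ± 0.084 in vehicle (adjusted p = 0.0548) and 0.24 ± 0.084 with R1881 (adjusted p = 0.129). Because RPL10 and RPL10L are closely similar and the RPL10 probe was not detected, which of these mRNAs the probe read was not tested.

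RPL34, a large subunit protein, was the 1 member called lower in HIF12 on its brightest probe, with R1881. HIF12 arrays read 11.37, 11.40, 11.24, 11.27 and 11.39 and LNCaP/Empty arrays 11.60, 11.63, 11.62, 11.89 and 11.66, with no overlap, a difference of -0.34 ± 0.094 (adjusted p = 0.0295). In vehicle it was -0.22 ± 0.094 (adjusted p = 0.312) and in Normal cells -0.18 ± 0.090 (adjusted p = 0.454). The call was lost without HIF12 replicate 3 or 4 or LNCaP/Empty replicate 4 or 5 (-0.35 to -0.29, adjusted p 0.0535 to 0.104) and with median scaling (-0.22, adjusted p = 0.397). The other RPL34 probe was lower in HIF12 in vehicle (-0.38 ± 0.106, adjusted p = 0.0452) and in Normal cells (-0.53 ± 0.101, adjusted p = 0.000739), and did not pass with R1881 (-0.34 ± 0.106, adjusted p = 0.0643), the condition in which the brightest probe passed. For RPS4X with R1881 the other probe was lower in HIF12 by -0.28 ± 0.069 (adjusted p = 0.0130). Its brightest probe gave -0.30 and was not called, though HIF12 arrays (13.86 to 14.05) and LNCaP/Empty arrays (14.12 to 14.37) did not overlap.

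**Figure D4:**
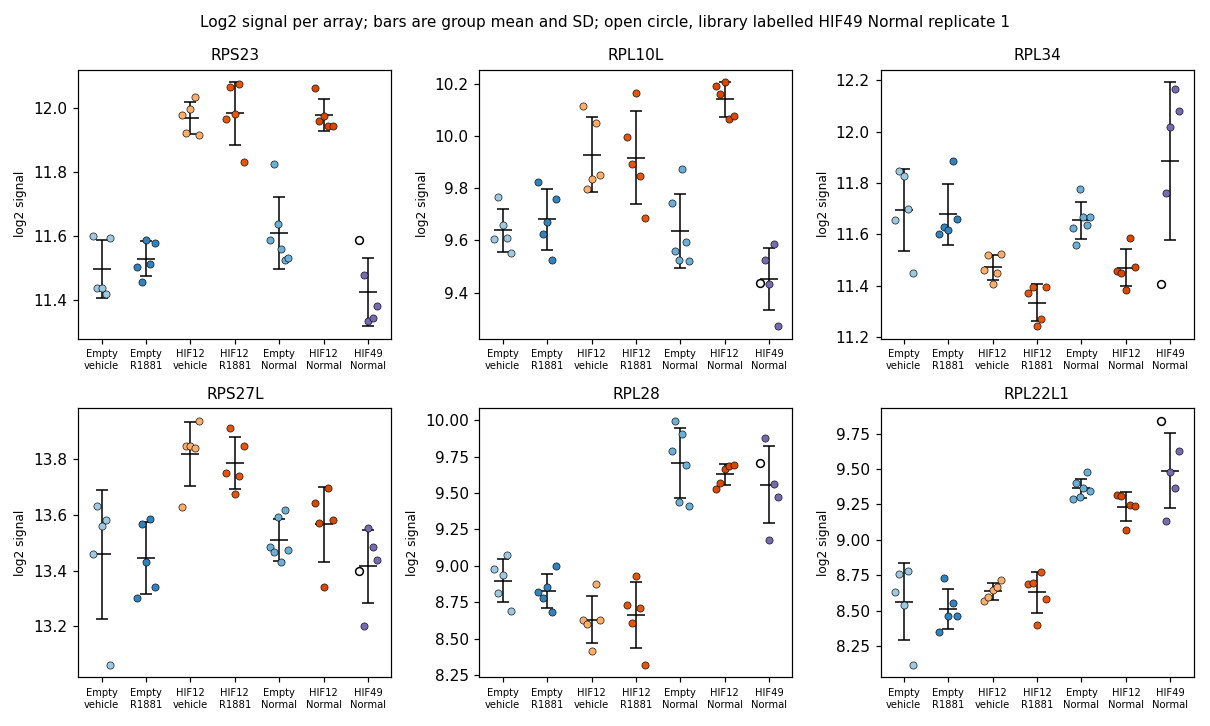
Log2 signal (vertical axis, a scale of its own in each panel) of RPS23, RPL10L, RPL34, RPS27L, RPL28 and RPL22L1 on each array of the 7 groups, with bars for mean and SD. RPS23 is higher in all 15 HIF12 arrays than in LNCaP/Empty of the same condition, RPL28 and RPL22L1 are higher in all Normal arrays than in vehicle or R1881 arrays, and the open circle is the library labelled HIF49 Normal replicate 1.

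The second clone was compared in Normal cells. Against LNCaP/Empty, HIF49 had 0 members higher and 5 lower (2.53% and 1.98% of all genes, 8.27% of detected genes in either direction, 25 members unadjusted). They were RPL21 (-0.63 ± 0.167, adjusted p = 0.0283), RPS4X (-0.37 ± 0.105, 0.0457), RPL13A (-0.33 ± 0.083, 0.0174), RPL37 (-0.29 ± 0.079, 0.0330) and RPL23A (-0.26 ± 0.068, 0.0298). The RPL37 probe lies at the 82.6 percentile of all probes by intensity, and which RPL37 transcripts it reads was not tested. RPL23A lies at the exit of the peptide tunnel, RPS4X is the X-linked partner of RPS4Y1, and RPL13A also has a known part in silencing of inflammatory mRNAs. Only RPL21 passed 1.5-fold, as did 0.733% of all genes on the lower side, and the median of the 78 was -0.084, against 0.0053 for all genes. RPL21 read 11.95, 13.13, 13.52, 13.58 and 13.13 on the HIF49 arrays and 13.55 to 13.75 on those of LNCaP/Empty with a median of 13.71 (n = 6). RPS4X read 12.95, 13.89, 13.88, 13.89 and 13.98, against 14.01 to 14.24. In both, the first and lowest value is the library that stands apart, and for RPL21 the other HIF49 arrays overlap LNCaP/Empty.

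Without that library 1 member was higher in HIF49 than in LNCaP/Empty and 2 were lower (2.33% and 1.95% of all genes in that fit, 11 members unadjusted), with a median of -0.056. RPL34 was then higher by 0.35 ± 0.076 (adjusted p = 0.00416), which its other probe did not show (0.051 ± 0.109, adjusted p = 0.934), RPL13A lower by -0.31 ± 0.089 (adjusted p = 0.0484) and RPS23 lower by -0.23 ± 0.062 (adjusted p = 0.0370), while RPL21 differed by -0.35 ± 0.113 (adjusted p = 0.0999) and RPS4X by -0.18 ± 0.058 (adjusted p = 0.105). RPL13A, on arrays 14.22, 14.57, 14.01, 14.21 and 14.52 against 14.51 to 14.81, overlapped between the groups. Each of the 5 calls of the full comparison was also lost on leaving out other single arrays, among them LNCaP/Empty replicate 2 for RPL13A (-0.30, adjusted p = 0.0583), for RPL23A (-0.20, adjusted p = 0.108), for RPL37 (-0.28, adjusted p = 0.0783) and for RPS4X (-0.38, adjusted p = 0.0711), and LNCaP/Empty replicate 1 for RPL21 (-0.62, adjusted p = 0.0561). Leaving out HIF49 replicate 5 or any single LNCaP/Empty array left 1 to 3 calls. With only the compared groups in the fit 0 members were called.

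Between the clones, HIF49 against HIF12, 1 member was higher and 7 lower (4.38% and 3.16% of all genes, 14.2% of detected genes in either direction, 24 members unadjusted), and RPL10L alone passed 1.5-fold (1.15% of all genes on the lower side). RPL10L was lower by -0.69 ± 0.084 (adjusted p = 3.87e-07), with HIF49 arrays at 9.44, 9.53, 9.43, 9.59 and 9.27. RPS23 was lower by -0.55 ± 0.064 (adjusted p = 1.35e-07). For both genes, whose HIF12 arrays are given above, the clones did not overlap. RPL29, a large subunit protein also known as a heparin-binding protein, was lower by -0.47 ± 0.120 (adjusted p = 0.0124), RPS21 by -0.36 ± 0.076 (adjusted p = 0.00172), RPL23A by -0.32 ± 0.071 (adjusted p = 0.00305), RPL7A by -0.29 ± 0.072 (adjusted p = 0.00967) and RPL37 by -0.29 ± 0.082 (adjusted p = 0.0330).

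RPL34 was the member that was higher in HIF49, at 11.41, 11.76, 12.02, 12.16 and 12.08 against 11.46, 11.45, 11.39, 11.59 and 11.47 in HIF12, a difference of 0.42 ± 0.094 (adjusted p = 0.00409). Its lowest HIF49 value is replicate 1, and its other probe gave 0.58 ± 0.106 (adjusted p = 0.000286). Without replicate 1 the clones differed in 1 member higher and 6 lower (4.24% and 3.3% of all genes in that fit, 16 members unadjusted) with a median of -0.047 in place of -0.080 (all genes 0.0048 with all arrays), RPL34 by 0.53 ± 0.079 (adjusted p = 1.22e-05), or 0.59 ± 0.113 on its other probe, and RPL29 by -0.26 ± 0.066 (adjusted p = 0.0116), and RPL37 was no longer called (-0.24, adjusted p = 0.111). The other members lower without it were RPL10L (-0.69 ± 0.090), RPS23 (-0.59 ± 0.064), RPL23A (-0.30 ± 0.075), RPS21 (-0.28 ± 0.070) and RPL7A (-0.23 ± 0.069, adjusted p = 0.0494). RPL37 was also lost without HIF49 replicate 5 or HIF12 replicate 1, 2 or 3 (adjusted p 0.0622 to 0.104). With only the compared groups in the fit, 2 members were called. These comparisons share the HIF49 and Normal arrays with those above and add no arrays.

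Vehicle and Normal cells were compared within each line, without knowing from the labels how the Normal cells were treated. In LNCaP/Empty, 0 members were higher and 2 lower in vehicle than in Normal cells, where 8.08% of all genes were higher, 8.72% lower, and 33% of detected genes called in either direction (13 members unadjusted). In HIF12, 0 were higher and 4 lower (8.17% and 7.53%, 30.7% of detected genes, 13 unadjusted). With only probes detected on at least 5 arrays, 0 were higher and 4 lower in LNCaP/Empty, and 3 higher and 4 lower in HIF12. The medians were 0.031 and 0.032, against -0.0084 and 0.00024 for all genes. The members passing 1.5-fold on the lower side numbered 2 in each line, against 2.59% and 2.35% of all genes. In 96.2% and 93.6% of the members the 95% interval of the difference lay within 1.5-fold, against 75.02% and 73.06% of detected genes.

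RPL28, a large subunit protein, was lower in vehicle in both lines. LNCaP/Empty read 8.98, 8.81, 8.94, 9.07 and 8.69 in vehicle and 9.41 to 10.00, median 9.74, in Normal cells (n = 6). HIF12 read 8.63, 8.60, 8.42, 8.87 and 8.63 in vehicle and 9.53, 9.57, 9.66, 9.68 and 9.70 in Normal cells. Vehicle and Normal arrays did not overlap in either line. The differences were -0.81 ± 0.113 (adjusted p = 2.25e-06) and -0.998 ± 0.118 (adjusted p = 1.19e-07), or 1.75-fold and 2.00-fold lower. The R1881 arrays, at 8.68 to 9.00 in LNCaP/Empty and 8.32 to 8.93 in HIF12, sat with vehicle. RPL28 has 1 probe, at the 87.3 percentile of all probes by intensity, and which RPL28 transcripts it reads was not tested.

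RPL22L1, the paralog of RPL22, was the other gene lower in vehicle in both lines. LNCaP/Empty read 8.63, 8.76, 8.54, 8.78 and 8.11 in vehicle and 9.29 to 9.48, median 9.36, in Normal cells (n = 6). HIF12 read 8.57, 8.60, 8.64, 8.66 and 8.72 in vehicle and 9.32, 9.31, 9.07, 9.24 and 9.24 in Normal cells. Again the groups did not overlap, with differences of -0.80 ± 0.102 (adjusted p = 4.18e-07) and -0.60 ± 0.107 (adjusted p = 0.000111). RPL22 itself differed by 0.04 ± 0.082 and 0.07 ± 0.086 (adjusted p = 0.901 and 0.783). HIF49 Normal cells read 9.84, 9.13, 9.48, 9.36 and 9.63, a difference of 0.13 ± 0.102 from LNCaP/Empty Normal (adjusted p = 0.690), and 0.038 ± 0.1002 without the first and highest array, the library that stands apart (adjusted p = 0.948).

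RPS7, a small subunit protein that can bind MDM2, and RPL36A were lower in vehicle in HIF12. RPS7 read 11.23, 11.32, 11.25, 11.38 and 11.26 in vehicle and 11.77, 11.82, 11.85, 11.72 and 11.67 in Normal cells, a difference of -0.48 ± 0.133 (adjusted p = 0.0153), and its other probe gave -0.56 ± 0.129 (adjusted p = 0.00253). RPL36A read 10.30, 10.27, 10.14, 10.09 and 10.14 against 10.62, 10.76, 10.53, 10.70 and 10.62, a difference of -0.46 ± 0.112 (adjusted p = 0.00457). Neither gene overlapped between the groups. In LNCaP/Empty the differences were -0.38 ± 0.128 for RPS7 (adjusted p = 0.0513) and -0.23 ± 0.107 for RPL36A (adjusted p = 0.211). There RPS7 did not overlap (11.21 to 11.54 in vehicle, 11.62 to 11.87 in Normal cells), whereas RPL36A did. These SEs take in the library labelled HIF49 Normal replicate 1, at 10.60 for RPS7 and 9.62 for RPL36A. In the fit without it, the SE of RPS7 was 0.071 for HIF49 against LNCaP/Empty. The vehicle comparison without it is not given here. The shift from Normal to vehicle did not differ between the lines for any of the 78 genes (0 called, 2 unadjusted, against 0.249% of all genes).

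Members with known roles outside the ribosome or in disease gave these differences between vehicle and Normal cells. RPL5 differed by 0.12 ± 0.083 in LNCaP/Empty and 0.12 ± 0.087 in HIF12, and RPL11 by 0.12 ± 0.056 and 0.16 ± 0.058 (adjusted p = 0.211 and 0.0777). RPS19 and RPS14, whose loss of 1 copy causes or accompanies anemia, differed by -0.06 ± 0.058 and 0.09 ± 0.063 in LNCaP/Empty. RPS3, which also has a known part in DNA repair, differed by 0.09 ± 0.075, and the stalk proteins RPLP1 and RPLP2, which recruit elongation factors, by 0.05 ± 0.059 and 0.03 ± 0.057. None of these passed the test.

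The remaining paralogs gave few calls, and RPL7L1 varied most among them. On their brightest probes, RPL3L, RPL7L1, RPL26L1, RPL36AL, RPL39L, RPS4Y1 and RPS4Y2 passed in none of the 11 comparisons and interactions. The other RPL36AL probe was lower in HIF49 than in HIF12 by -0.26 ± 0.076 (adjusted p = 0.0415), and by -0.20 ± 0.074 without the library that stands apart (adjusted p = 0.168). RPL7L1 passed the F test (adjusted p = 0.00406) with group means spanning 0.61. It read 14.02 on HIF49 Normal replicate 1 and 12.76 to 13.11 on the other HIF49 arrays. The other RPL7L1 probe was lower in HIF12 than in LNCaP/Empty in all 3 conditions, by -0.42 ± 0.102, -0.40 ± 0.102 and -0.39 ± 0.098 (adjusted p = 0.0151, 0.0168 and 0.0160), where the brightest gave -0.03, 0.02 and 0.0013. That probe was also higher in HIF49 than in HIF12 by 0.53 ± 0.102 (adjusted p = 0.000651), where the brightest gave 0.31. Without the library that stands apart these were 0.63 ± 0.095 (adjusted p = 1.68e-05) and 0.10 ± 0.087. In all, 33 members had 45 further probes detected on all arrays. These gave 0 to 7 calls in each of the 9 group comparisons, where 3.78% to 33% of detected genes were called. The 7 calls were in HIF49 against HIF12, beside 14.2% of detected genes. Without the library that stands apart they were 5, beside 14.4%. The further probes disagreed with the brightest probe also for RPS29, where 1 probe was lower in HIF49 than in LNCaP/Empty by -0.79 ± 0.122 (adjusted p = 4.52e-05, and -0.77 ± 0.131 without the library that stands apart) and the brightest differed by 0.16, and for RPS15, where 1 probe was higher in HIF12 by 0.30 ± 0.079 in vehicle (adjusted p = 0.0273) and the brightest differed by -0.00047. The probes also differed for RPS26 in HIF12 against LNCaP/Empty in Normal cells (0.52 against -0.014), for RPS24 in HIF49 against HIF12 (-0.43 against 0.0090, and -0.36 without the library that stands apart) and for RPL13 in vehicle against Normal LNCaP/Empty cells (-0.36 against 0.024). They gave the same direction for RPL34, RPL29, RPL36AL, RPS4X and RPS7.

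Across the 36 arrays, with group means removed, the 3003 pairs of members had a median correlation of 0.031 (quartiles -0.16 and 0.25). These pairs share arrays and normalization, and the value is given as a description.

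The genes that build and drive ribosomes were counted in the same way. In vehicle against Normal cells the shares of all genes, given above, were 8.08% higher and 8.72% lower in LNCaP/Empty and 8.17% and 7.53% in HIF12, and 33% and 30.7% of detected genes passed in either direction. Of 52 measured ribosome assembly and RNA polymerase I factors (55 listed), 44.2% were called in either direction in LNCaP/Empty, against 33% of detected genes. In HIF12 the share was 28.8%, against 30.7% of detected genes. In vehicle 1 of these factors was higher and 22 lower in LNCaP/Empty (median -0.27), and 0 and 15 in HIF12 (median -0.25). Among them, NOP2, which methylates rRNA, was lower by -0.72 ± 0.074 in LNCaP/Empty (adjusted p = 5.34e-09) and -0.47 ± 0.077 in HIF12 (adjusted p = 3.87e-05), nucleolin (NCL) by -0.69 ± 0.075 in LNCaP/Empty (adjusted p = 1.73e-08), and NOLC1, a chaperone of small nucleolar RNAs, by -0.68 ± 0.112 and -0.65 ± 0.117 (adjusted p = 3.57e-05 and 0.000136). With R1881, 5 of the 52 were lower in LNCaP/Empty, led by NOB1 (-0.39 ± 0.105, adjusted p = 0.0427), where 0.983% of all genes were lower, and 0 in HIF12 (0.514%). In either direction 9.62% of the list were called in LNCaP/Empty, against 5.38% of detected genes, and 0 in HIF12, against 3.78%. In the clone comparisons 2 to 5 were called in either direction, where 7.91% to 14.2% of detected genes were, and for HIF49 without the library that stands apart 4 against LNCaP/Empty and 6 against HIF12.

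Of 78 measured mitochondrial ribosomal proteins, which form a separate ribosome, 4 were higher and 15 lower in vehicle in LNCaP/Empty (median -0.11), and 0 and 27 in HIF12 (median -0.16). In either direction this is 24.4% and 34.6% of them, beside the 33% and 30.7% of detected genes. MRPL32 was lower by -0.69 ± 0.076 and -0.70 ± 0.080 (adjusted p = 2.46e-08 and 5.44e-08). MRPS10 was lower in HIF12 than in LNCaP/Empty by -0.80 ± 0.073, -0.87 ± 0.073 and -0.83 ± 0.070 in vehicle, R1881 and Normal cells. In those comparisons 6, 6 and 2 mitochondrial members were called, or 7.69%, 7.69% and 2.56% of the list, against 7.91%, 10.9% and 8.6% of detected genes. For HIF49, 4 were higher than in LNCaP/Empty, and 8 higher and 4 lower than in HIF12, with the same numbers without the library that stands apart. Of all genes 2.53% were higher than in LNCaP/Empty, and 4.38% higher and 3.16% lower than in HIF12. In either direction 5.13% and 15.4% of the list were called, against 8.27% and 14.2% of detected genes. With R1881 1 was higher in each line, MRPS18A.

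Of 24 measured translation factors and other mRNAs with a TOP start (26 listed), 0 were called with R1881 in either line (5.38% and 3.78% of detected genes), and 1 higher and 3 lower in vehicle in LNCaP/Empty and 0 and 3 in HIF12 (16.7% and 12.5% of the list, against 33% and 30.7% of detected genes), among them EIF4B, a helicase cofactor (-0.42 ± 0.075 and -0.32 ± 0.078, adjusted p = 0.000116 and 0.00434). At most 1 (4.17% of the list) was called in each clone comparison, with or without the library that stands apart. Of detected genes 7.91% to 14.2% were called in these comparisons, and for HIF49 without that library 7.83% and 14.4%. EEF1A1, the elongation factor that delivers tRNA, differed by 0.015 ± 0.051 and -0.026 ± 0.053 between vehicle and Normal cells. FAU, which encodes a small subunit protein fused to a ubiquitin-like protein, was higher in HIF12 in Normal cells by 0.21 ± 0.053 (adjusted p = 0.0205).

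Of 26 measured regulators (28 listed), 2 were higher and 5 lower in vehicle in LNCaP/Empty, and 4 and 2 in HIF12, or 26.9% and 23.1% of the list, against 33% and 30.7% of detected genes. SESN1, which restrains mTORC1, was higher by 1.18 ± 0.079 and 0.87 ± 0.082 (adjusted p = 1.82e-13 and 7.98e-10), and MTOR itself lower by -0.59 ± 0.089 and -0.62 ± 0.093 (adjusted p = 8.78e-06 and 8.28e-06). MYC, which drives ribosome production, was lower with R1881 in LNCaP/Empty by -0.63 ± 0.145 (adjusted p = 0.0110), and MTOR was higher with R1881 in HIF12 by 0.45 ± 0.093 (adjusted p = 0.00443). In the clone comparisons 1 to 3 regulators were called, or 3.85% to 11.5% of the list, against 7.91% to 14.2% of detected genes. For HIF49 without the library that stands apart, 0 were called against LNCaP/Empty and 1 against HIF12, where 7.83% and 14.4% of detected genes were. LARP1 was detected on no array. How the lists compare with each other was not tested.

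**Figure D5:**
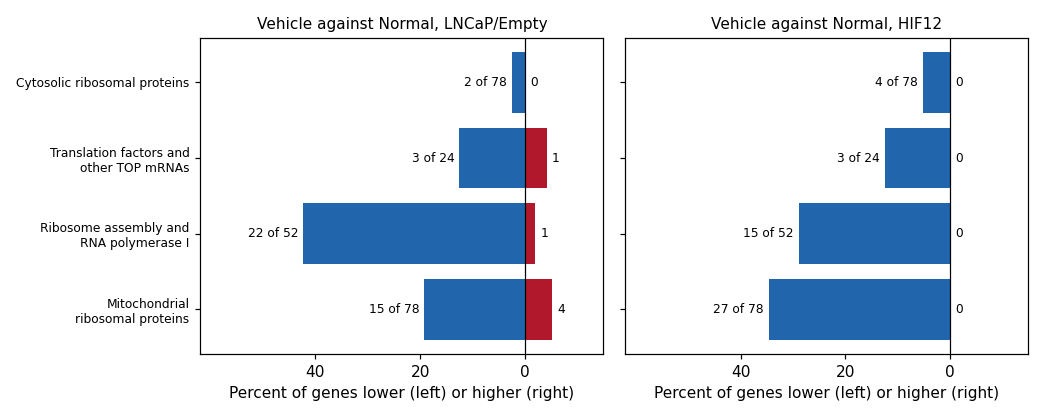
Share of genes lower (blue, left) or higher (red, right) in vehicle than in Normal cells at an adjusted p under 0.05, in percent (horizontal axis), for 4 gene lists (vertical axis) in LNCaP/Empty and HIF12, with numbers of genes beside the bars. In LNCaP/Empty 22 of 52 ribosome assembly factors and 2 of 78 cytosolic ribosomal proteins were lower, where 8.72% of all genes were. In HIF12 the counts were 15 and 4, where 7.53% of all genes were lower. In either direction 44.2% and 28.8% of the assembly factors were called, against 33% and 30.7% of detected genes. The lists were not tested against each other.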

How the data were processed

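RNA of the 36 samples was hybridized to Illumina BeadArrays. The deposited table held scanner intensity values per probe, neither background corrected nor normalized, with detection p-values, as the authors deposited them; a second deposited table held quantile normalized intensity values on a linear scale. The study names HumanWG v2 arrays, whereas the probe table used for gene names is that of HumanHT-12 V4.0. The image analysis software is not given in the sources used here. Of 48107 probes, 48105 were tested, 2 lacking a value; 30112 carried 1 gene symbol, 8 several and 17985 none.

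Intensities were background corrected with nec (offset 16), which infers negative controls from the detection p-values, quantile normalized and log2 transformed (limma 3.58.1, R 4.3.3). One mean per group and a shared variance were fitted over all arrays with lmFit and eBayes, and every adjusted p is limma's, Benjamini-Hochberg over all probes. The library labelled HIF49 Normal replicate 1 is among these arrays, so its spread also enters the SE of comparisons without HIF49. A gene was called at an adjusted p under 0.05, and counted again at 1.5-fold. The number of arrays per group limits the precision. The main fit used no pairing by the replicate numbers of the titles: over 45 pairs the correlation of deviations ran from -0.41 to 0.39, and 14 were above 0.1. In no comparison were all pairs above 0.1, which does not show that the arrays were unpaired.

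The study's methods left out probes with poor match scores, which was not repeated here. Members named were up to 6 higher and 6 lower per comparison among those called, the 10 with the largest F, all paralogs with their partners, and members with roles outside the ribosome or in disease; of the pathway lists, genes with the largest called differences and a few fixed ones. RPL6, RPL7, RPL13, RPS15, RPS24, RPS26 and RPS29 were named after their values were seen. The members and the lists were chosen with earlier results of these data known. Alternatives were other background corrections, median scaling, the deposited normalized table, a detection filter, other probes of a gene, the compared groups alone, blocks and leaving out each array.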

Additional observations from a re-analysis of the deposited data

Results flagged for a closer look

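Within groups of 5 or 6 arrays, 119 tests were made for a single array far from the rest. They covered 16 members and the median of all members in each of the 7 groups. The 16 members are those called in a comparison of these same data. By Dixon's criterion 12 values stood apart. Chance gives this in about 1 in 20 unselected groups, a rate that need not hold for members chosen by their calls. Of the 12 values, 5 were the library labelled HIF49 Normal replicate 1: RPL21 read 11.95 (the other 4 arrays 13.13 to 13.58), RPL29 10.94 (11.83 to 12.12), RPL36A 9.62 (10.33 to 10.56), RPS4X 12.95 (13.88 to 13.98) and RPS7 10.60 (11.69 to 11.91). The same library read lowest of the Normal arrays for 2 of 3 HIF1A probes.

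The other 7 values were spread over 6 arrays. RPL23A read 11.85 on LNCaP/Empty R1881 replicate 5 (others 12.05 to 12.13) and 12.50 on LNCaP/Empty Normal replicate 2 (12.14 to 12.23). RPS23 read 11.82 on that same LNCaP/Empty Normal replicate 2 (11.52 to 11.64) and 12.06 on HIF12 Normal replicate 1 (11.94 to 11.98). RPL34 read 11.89 on LNCaP/Empty R1881 replicate 4 (11.60 to 11.66), RPL29 11.83 on HIF12 R1881 replicate 4 (11.98 to 12.00) and RPL21 13.55 on LNCaP/Empty Normal replicate 4 (13.68 to 13.75).

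The clones differed from each other in Normal cells in 8 members, by the fitted difference HIF49 minus HIF12, which is the difference of their effects against the shared LNCaP/Empty: RPL10L -0.69, RPS23 -0.55, RPL29 -0.47, RPS21 -0.36, RPL23A -0.32, RPL7A -0.29 and RPL37 -0.29 were lower in HIF49, and RPL34 was higher by 0.42. RPL37 is the one whose call was lost without the library labelled HIF49 Normal replicate 1.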

How the results depend on the processing

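No result changed sign in a call under any alternative run. Calls for RPS23 (4 comparisons), RPL10L (2), RPL28 (2), RPL22L1 (2), RPL36A and RPS7 held under all of them. With median scaling the medians moved to 0.091 for HIF12 against LNCaP/Empty with R1881, 0.041 for R1881 in HIF12, 0.052 for the difference of the androgen effects, -0.17 for HIF49 against LNCaP/Empty and -0.16 for HIF49 against HIF12, where the mean of detected probes gave -0.13. For HIF12 against LNCaP/Empty in vehicle, 4 members (3 higher and 1 lower) were called with the deposited table, without background correction, with only probes detected on at least 5 arrays or with blocks of 12 running numbers, and 1 with only the compared groups. For HIF49 against LNCaP/Empty, 3 were called with plain normexp, 3 with the replicate block, 2 with blocks of 12 and 0 with only the compared groups. For HIF49 against HIF12, 13 were called with the detection filter and 2 with only the compared groups. For vehicle against Normal the detection filter gave 7 in HIF12 (3 higher and 4 lower) and 4 in LNCaP/Empty. The detection filter tests fewer probes, and the compared groups alone fewer arrays; the cause of the other shifts was not tested. The replicate block moved no other count of calls by over 1.5 times. Leaving out 1 array at a time, calls ran from 1 to 3 for HIF12 against LNCaP/Empty in vehicle, 1 to 4 with R1881 and 1 to 5 for HIF49 against LNCaP/Empty. The brightest probes read near the array maxima, which limits what they can show.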
